A study of Cervus nippon with 40 samples.

Results

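Antler and testes of male Sika Deer were compared by their miRNAs, with 4 antler libraries set against 4 testes libraries, 8 of the 40 libraries of the series. The members were chosen by tissue and paired by stage number, and only names of known cattle miRNAs (the prefix bta- of miRBase) entered the comparison. Such names numbered 337 over the 40 libraries and 243 in the 8 libraries used here, and after 31 names that only antler lists were left out, 79 held enough reads to be tested, which means at least 10 reads in at least 4 of the 8 libraries. All deer were males of the Shuangyang breed with no treatment named. Deer of the juvenile stage were 1 year old, those in adolescence 3, adult deer 5 and aged deer 10 years, and each tissue had 1 library at each stage, made from RNA of 3 deer pooled. The organs of a stage came from the same deer, 12 animals in all, so the antler and testes libraries of a stage form a pair of the same animals. No library repeats a pool of deer, so the spread within a tissue holds the difference between stages as well. The part of the antler, its phase of growth and the season were not given in the sources used here.

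miRNAs are short RNAs that pair with messenger RNAs and lower their translation or stability. The antler is a bony outgrowth of the skull that deer cast and regrow each year from mesenchymal tissue by way of cartilage. The testes make testosterone, whose rise in the season drives the antler to mineralise and shed its velvet and whose fall precedes casting. In bulk tissue, fewer cells of a type and less RNA per cell cannot be told apart.

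The antler libraries held 214726, 214165, 674539 and 722160 miRNA reads from the youngest to the oldest stage, and the testes libraries 535668, 67231, 97018 and 41866. One read was worth 1.38 to 4.66 RPM (the reads of a miRNA over all miRNA reads of its library, scaled to 1000000) in antler, 1.87 RPM in the juvenile testes and 10.3 to 23.9 RPM in the later testes. Values of 1 to 10 reads in the later testes are therefore coarse, and a miRNA listed with no read there may be present below that level. Cattle names with a read numbered 137 to 173 in antler and 100 to 183 in testes. With each library thinned to the 41866 reads of the aged testes, the medians were 87 to 101 in antler and 100 to 124 in testes. Of the names with a read in the 8 libraries, 164 were read in both tissues, 13 in antler alone and 34 in testes alone, with the names that only antler lists left out.

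The labelled tissues were checked against defining miRNAs. miR-140, a miRNA of cartilage, was read at 115, 148, 46 and 89 reads in antler and at 60, 3, 1 and 1 in testes, while miR-455-3p, also known from cartilage, had only 1 read in antler and 9 in testes. The markers of the gonad were at or near 0 in both tissues. miR-202, which is enriched in gonads, had 7, 1, 0 and 0 reads in testes and none in antler, and miR-449a, known from male germ cells and ciliated cells, had 6 reads in testes, all at adolescence. Over the list of 27 germ line and gonad miRNAs, 3 had a read, with 14 reads in testes and 1 in antler, and none could be tested. The defining miRNAs of testes thus gave no check of that label, also in the juvenile testes library with its 535668 reads.

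The miR-199 names made up most of the antler reads. miR-199a-3p, miR-199a-5p and miR-199c together held 65.0%, 63.9%, 74.3% and 59.6% of the miRNA reads of antler from juvenile to aged, against 37.7%, 21.7%, 13.7% and 15.6% in testes, with near-identical names counted once. Every antler share lay above every testes share. The let-7 names with miR-98, miRNAs that are abundant in most mature tissues, held 10.6% to 18.4% of antler and 18.6% to 41.8% of testes reads. The share of miR-30 names was 0.750% to 1.74% in antler and 5.16% to 9.81% in testes, and that of miR-378 names was 2.65% to 4.05% in antler and 0.319% to 0.646% in testes.

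**Figure D1:**
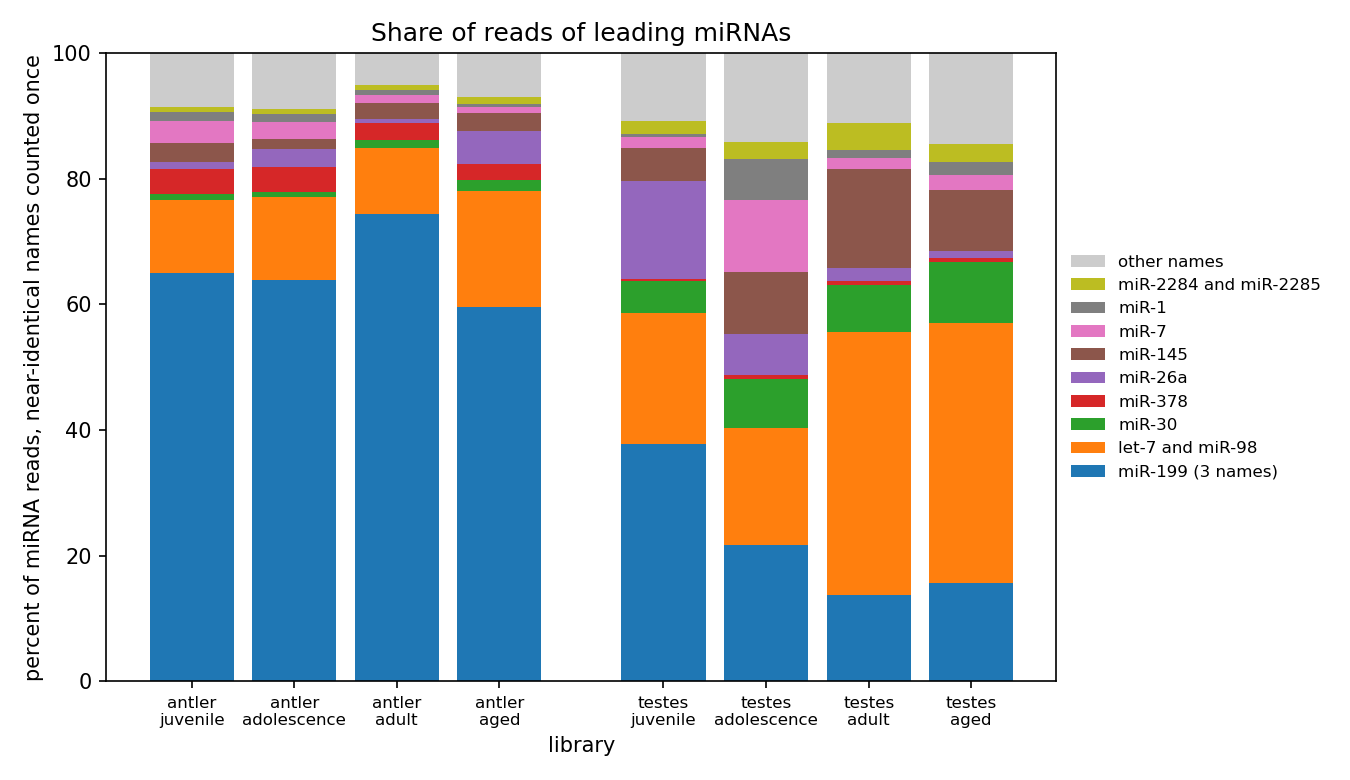
Each bar is 1 library and its segments are the percent of miRNA reads held by the named miRNAs, with near-identical names counted once. The miR-199 segment takes 59.6% to 74.3% of the antler bars and 13.7% to 37.7% of the testes bars, while the let-7 and miR-30 segments are wider in testes. Names that only antler lists fall under other names.

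With so large a share in 1 family, the scale of the other miRNAs depends on the scaling. Levels were therefore scaled with TMM, which adjusts library sizes on the view that the bulk of the miRNAs do not differ, and it moved the median log2 difference between antler and testes over the 79 names from -1.08 on RPM as deposited to -0.08. All differences below are antler minus testes on log2(TMM-scaled RPM + 10), fitted with limma with the stage as a block. A miRNA was called at a Benjamini-Hochberg adjusted p under 0.01 and a log2 difference beyond 1 in either direction. Adding 10 RPM makes the differences of scarce miRNAs smaller than those of their reads.

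Of the 79 names, 11 were called (13.9%), 9 higher in antler (11.4%) and 2 lower (2.53%). The minimum of 10 reads stands for a higher RPM in the later testes than in antler, so names higher in testes were less readily tested. For example, miR-135a had 26 reads in antler and 205 in testes, and miR-196a had 4 and 98, and neither was tested. The split of 9 and 2 is thus no measure of how many miRNAs lie on each side. The 9 were miR-2285l, miR-378, miR-140, miR-378c, miR-199c, miR-671, miR-3120, miR-486 and miR-214, and the 2 were miR-30f and miR-7859. On the scaled levels all 4 antler libraries lay above all 4 testes libraries for 14 names (17.7%) and below them for 8 (10.1%), and the 11 called names were all among these. On RPM as deposited the counts were 10 names above (12.7%) and 31 below (39.2%), and of the called names miR-140 and miR-199c then overlapped. Over the stages, 16 names were higher in antler at all 4 stages, 18 were lower at all 4 and 45 were mixed. The number of calls depended on the method. RPM as deposited gave 25 calls, 8 higher and 17 lower, DESeq2 on the recovered reads gave 19, the fit without the stage block gave 17, and edgeR on the recovered reads gave 1 (miR-378), with 27 names at an unadjusted p under 0.05. Leaving out any 1 stage left 0 to 2 calls, with 0 without juvenile, 0 without adolescence, 1 without adult and 2 without aged.

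**Figure D2:**
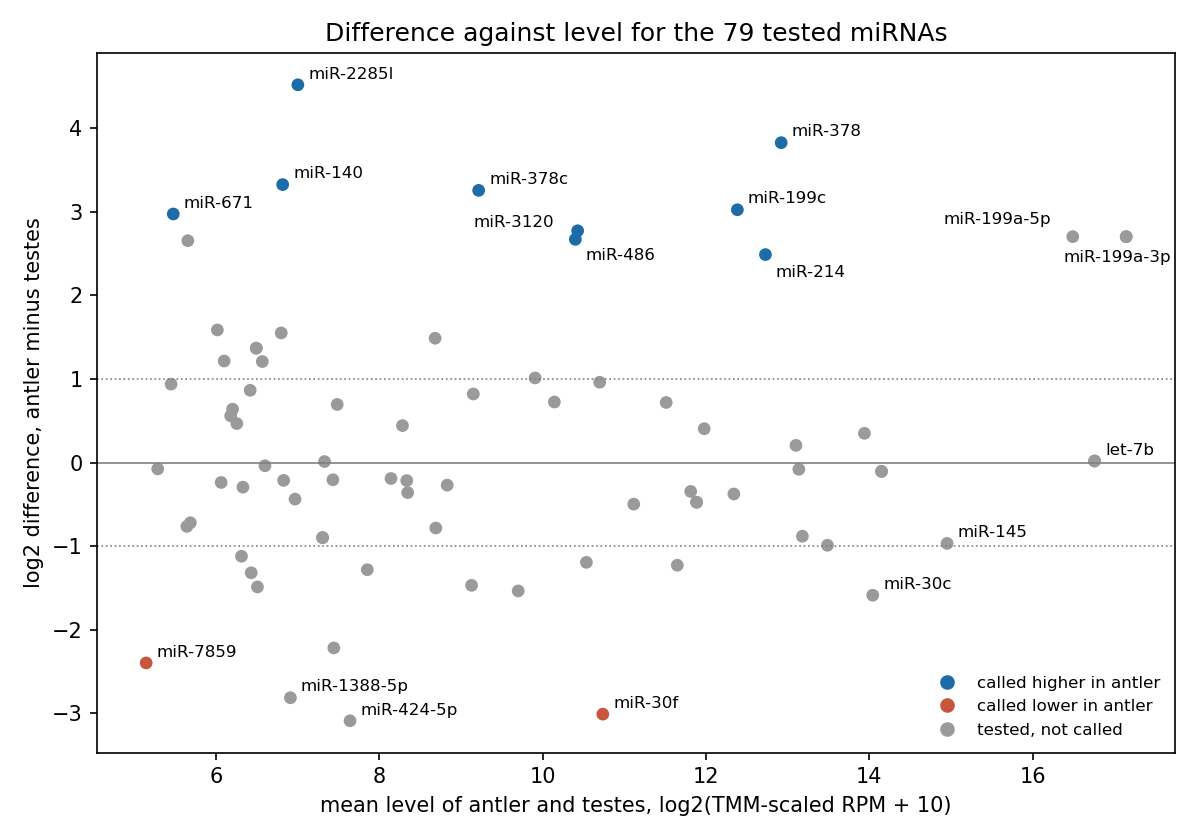
Each point is 1 of the 79 tested miRNAs, with its mean log2 level over antler and testes on the x axis and the log2 difference, antler minus testes, on the y axis. Dotted lines stand at a log2 difference of 1 in either direction, the 9 names called higher in antler lie between 2.49 and 4.52, and the called miR-30f and miR-7859 lie at -3.01 and -2.40.

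Among the miRNAs known from mesenchyme and skeleton, miR-199c, miR-214, miR-3120 and miR-140 were called higher in antler. Of 24 names in this list, 17 had a read and 8 were tested, and 4 were called higher and none lower, where 9 of all 79 names (11.4%) were called higher. The median log2 difference was 2.70 over the 8, against -0.08 over all 79 names, and 7 of the 8 were higher at all 4 stages, as were 16 of the 79. The 8 hold the reads of miR-199a-3p a second time under the name miR-3604. In addition, miR-199a-5p and miR-199c belong to its family. miR-214 and miR-3120 come from the same place, which in other mammals is transcribed together with a miR-199a gene. The 8 are therefore not 8 separate results. The exception among the 8 tested was miR-24-3p, named after its values were seen, at a difference of -0.21. Names of the list with too few reads to be tested, also named after their values were seen, went both ways. miR-29a had 8 reads in antler and 42 in testes, miR-29d-3p 0 and 7, and miR-455-3p 1 and 9. In contrast, miR-21-5p had 20 and 4, a mean of 16.1 RPM in antler and 1.87 RPM in testes. The reads of miR-23a, 3 and 0, lay in the deep adult and aged antler libraries and are too few to show a direction. The list was written with earlier results of these data known, so it is not independent evidence of its direction.

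Within it, miR-199a-3p and miR-199a-5p are the 2 arms of 1 precursor and are known from mesenchymal cells and the skeleton. miR-199a-3p was at 244470, 228067, 287926 and 251984 RPM in antler from juvenile to aged and at 154476, 88546, 61143 and 56991 RPM in testes. On RPM the antler libraries differed little from each other and all lay above the testes libraries, in which the juvenile one was the highest. The TMM-scaled antler values were further apart, at 282173, 211014, 816357 and 382449 RPM, and still all above those of testes. On the scaled levels the log2 difference of miR-199a-3p was 2.70 (SE 0.58, limma adjusted p = 0.0158), which missed the limit. That of miR-199a-5p was 2.70 (SE 0.55, limma adjusted p = 0.0143). Both passed it without the stage block (limma adjusted p = 0.00218 and 0.00169), and on RPM as deposited their differences were 1.60 and passed it too, while over all alternatives their adjusted p reached 0.0876 and 0.0616. miR-3604 carries nearly the same reads as miR-199a-3p and is no separate result.

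miR-199c, a miRBase name of the same family, was at 11950, 22459, 8805 and 4967 RPM in antler and at 6153, 2975, 1948 and 1553 RPM in testes. On RPM the aged antler lay below the juvenile testes, while within each stage antler was the higher of the pair and on the scaled levels the tissues did not overlap. The mean was 12045 ± 7507 RPM (SD, n = 4) in antler and 3157 ± 2085 RPM in testes. Its log2 difference of 3.02 (SE 0.55) was called (limma adjusted p = 0.00951), with 1.28 at juvenile and 3.07 to 4.02 at the later stages.

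miR-214 is transcribed in other mammals together with miR-199a-2 from the strand opposite the dynamin 3 gene and is known from skeletal development. It was at 15075, 16469, 8220 and 7088 RPM in antler and at 3935, 2305, 5556 and 6043 RPM in testes. Every antler value was above every testes value, though the aged pair lay close, and the log2 difference of 2.49 (SE 0.45) was called. miR-3120, which is read from the other strand at the same place as miR-214, was at 2655, 2311, 1613 and 3670 RPM in antler and at 624, 1145, 402 and 1147 RPM in testes. Its tissues did not overlap either, and its log2 difference was 2.77 (SE 0.47, called).

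miR-140, from an intron of the WWP2 gene, is needed for growth plate cartilage in mice. It was at 536, 691, 68.2 and 123 RPM in antler and at 112, 44.6, 10.3 and 23.9 RPM in testes. The juvenile and adolescent antler values stood well above the adult and aged ones, and the adult antler lay below the juvenile testes on RPM. The ratio of antler to testes was 4.78 (95% interval 3.47 to 6.65) at juvenile and 15.5 (5.2 to 76.0) at adolescence, while the adult and aged testes held 1 read each, so that their ratios of 6.62 (1.13 to 267) and 5.16 (0.903 to 206) were loose. These intervals are exact, conditional on the reads of both libraries, and cover counting error only. The log2 difference of 3.32 (SE 0.46) was called.

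**Figure D3:**
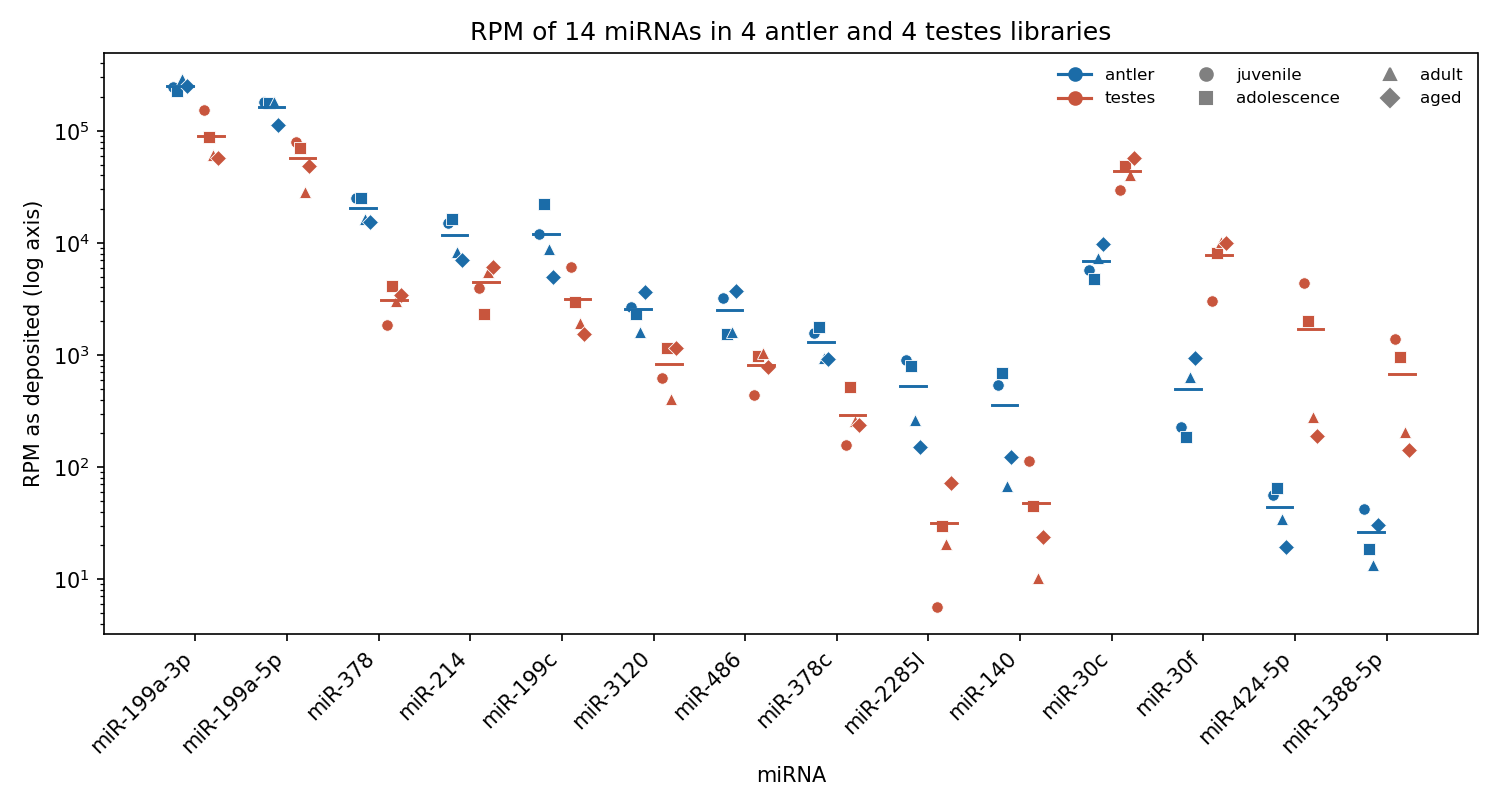
Points are the RPM as deposited of 14 miRNAs in each of the 8 libraries on a log axis, with a marker shape for each stage and a bar at the mean of the 4 libraries of a tissue. The miR-378 points of antler (15443 to 25051) and testes (1852 to 4150) are far apart, whereas those of miR-140 and miR-199c overlap on this scale.

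Of the 11 called names, miR-378 was called under the largest number of alternatives (18 of 20). It lies in an intron of PPARGC1B and is known from mitochondrial metabolism and muscle. miR-378 was at 24985, 25051, 16340 and 15443 RPM in antler and at 1852, 4150, 3061 and 3440 RPM in testes. The lowest antler library was 3.72 times the highest testes library. The log2 difference was 3.83 (SE 0.37, limma adjusted p = 0.00284), and the 4 stages lay between 3.41 and 4.26. As a ratio of RPM, antler over testes, it was 13.5 at juvenile, 6.04 at adolescence, 5.34 at adult and 4.49 at aged. Against the reads of let-7b in the same library, a ratio that no scaling alters, miR-378 stood at 0.165 to 0.348 in antler and at 0.0124 to 0.0387 in testes.

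miR-378c, a close relative, was at 1555, 1793, 947 and 925 RPM in antler and at 159, 521, 258 and 239 RPM in testes, with no overlap and a called log2 difference of 3.26 (SE 0.41). Its reads were 0.0580 to 0.0716 of those of miR-378 in antler and 0.0694 to 0.125 in testes, and how reads were shared out among relatives of such like sequence was not given in the sources used here. miR-378d, named after its values were seen, held 24 to 37 reads in antler and 9, 7, 0 and 0 in testes, and its difference of 2.65 (SE 0.50, limma adjusted p = 0.0109) missed the limit. It was tested only through its reads in antler.

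miR-486, an erythroid and muscle miRNA from the ANK1 gene, was at 3209, 1527, 1606 and 3699 RPM in antler and at 441, 982, 1031 and 788 RPM in testes. The tissues did not overlap and the log2 difference of 2.67 (SE 0.49) was called. It was the only tested one of 3 red blood cell miRNAs. The only other one read, miR-451, had 1 read in antler and 0 in testes. Their summed level, nearly all of it miR-486, was 1532 to 3699 RPM in antler and 441 to 1031 RPM in testes. The part of blood in this difference was not tested. The summed white blood cell miRNAs were at 98.1 to 149 RPM in antler and 23.9 to 654 RPM in testes, with 3 of 5 read, and the tested one, miR-142-5p, had a difference of 1.55 (SE 1.04, limma adjusted p = 0.346).

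miR-671 was read 26, 31, 30 and 35 times in antler and 10, 0, 0 and 1 times in testes. All antler values lay above those of testes, and the log2 difference of 2.97 (SE 0.50) was called on few reads. miR-2285l had the largest difference, 4.52 (SE 0.68), with 195, 171, 179 and 108 reads in antler and 3, 2, 2 and 3 in testes. It met the minimum of reads through the antler libraries alone, the tissue where it is high, so its call is not independent of that filter. miR-671 met the minimum in antler and in the juvenile testes. At the aged stage the RPM ratio of miR-2285l was 2.09 with an interval of 0.695 to 10.3. The miR-2284 and miR-2285 names are a large ruminant family, and antler lists 48 of them against 32 in testes, under a partly different set of names, so the place of miR-2285l rests on how the reads of that family were named. The 48 names held 0.477% to 0.674% of all antler reads and the 32 names 1.29% to 2.83% of all testes reads.

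The names called lower in antler were miR-30f and miR-7859. miR-30f belongs to the miR-30 family, which is abundant in kidney and lung, and was at 228, 187, 636 and 946 RPM in antler and at 3054, 8077, 10112 and 10080 RPM in testes. The lowest testes value was 3.23 times the highest antler value, and the log2 difference of -3.01 (SE 0.55, limma adjusted p = 0.00951) was called. miR-30c, the most abundant of the family, was at 5691, 4800, 7264 and 9757 RPM in antler and at 29395, 49055, 40724 and 56991 RPM in testes. It did not overlap either, and its difference on the scaled levels was -1.59 (SE 0.45, limma adjusted p = 0.0422). On RPM as deposited it was -2.69 and passed the limit, as it did with DESeq2. Of 7 miR-30 names, 6 were read and 3 tested, with 1 called lower, none called higher and a median of -1.59, where 2 of all 79 names (2.53%) were called lower and the median was -0.08. The other one, miR-30b-5p, had 3 to 19 reads in antler and 2 to 52 in testes and a difference of -0.76 (SE 0.68). The reads of miR-30f were 0.0389 to 0.0969 of those of miR-30c in antler and 0.104 to 0.248 in testes.

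miR-7859 was called lower at -2.40 (SE 0.39), but on 0, 0, 2 and 10 reads in antler and 14, 7, 11 and 14 in testes. Its tissues did not overlap in RPM.

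miR-424-5p, from a cluster on the X chromosome and a relative of miR-15 and miR-16, was the largest negative difference that was not called. It was at 55.9, 65.4, 34.1 and 19.4 RPM in antler (12, 14, 23 and 14 reads) and at 4352, 1993, 278 and 191 RPM in testes (2331, 134, 27 and 8 reads). Antler lay below testes at every stage, and the juvenile and adolescent testes stood far above the adult and aged ones. The RPM of testes over antler was 77.9 (95% interval 44.5 to 151) at juvenile, 30.5 (17.6 to 57.3) at adolescence, 8.16 (4.51 to 14.9) at adult and 9.86 (3.58 to 25.2) at aged. The log2 difference of -3.09 (SE 0.83) had an adjusted p of 0.0387 by limma, above the limit. It passed the limit without the stage block (limma adjusted p = 0.00872), in the limma fit of all 40 libraries (6.56e-05), with DESeq2 (7.69e-06) and on RPM as deposited, where it was -4.07 (limma adjusted p = 0.00178), and over all its alternatives the adjusted p reached 0.139. Of the 10 names of its cluster 3 were read, miR-450b with 15 reads in antler and 72 in testes and miR-542-5p with 1 and 22, neither of them tested.

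miR-1388-5p, named after its values were seen, ran the same way, with 9, 4, 9 and 22 reads in antler and 748, 64, 20 and 6 in testes and a difference of -2.81 (SE 0.74, limma adjusted p = 0.0354). The Hox cluster miRNAs, which mark the position of a tissue along the body, could not be tested, but were read 9 times in antler and 303 times in testes. miR-196b had 0, 0, 0 and 1 reads in antler and 191, 1, 6 and 1 in testes, so it rests on the juvenile library, while miR-196a had 0, 1, 0 and 3 against 82, 6, 7 and 3.

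**Figure D4:**
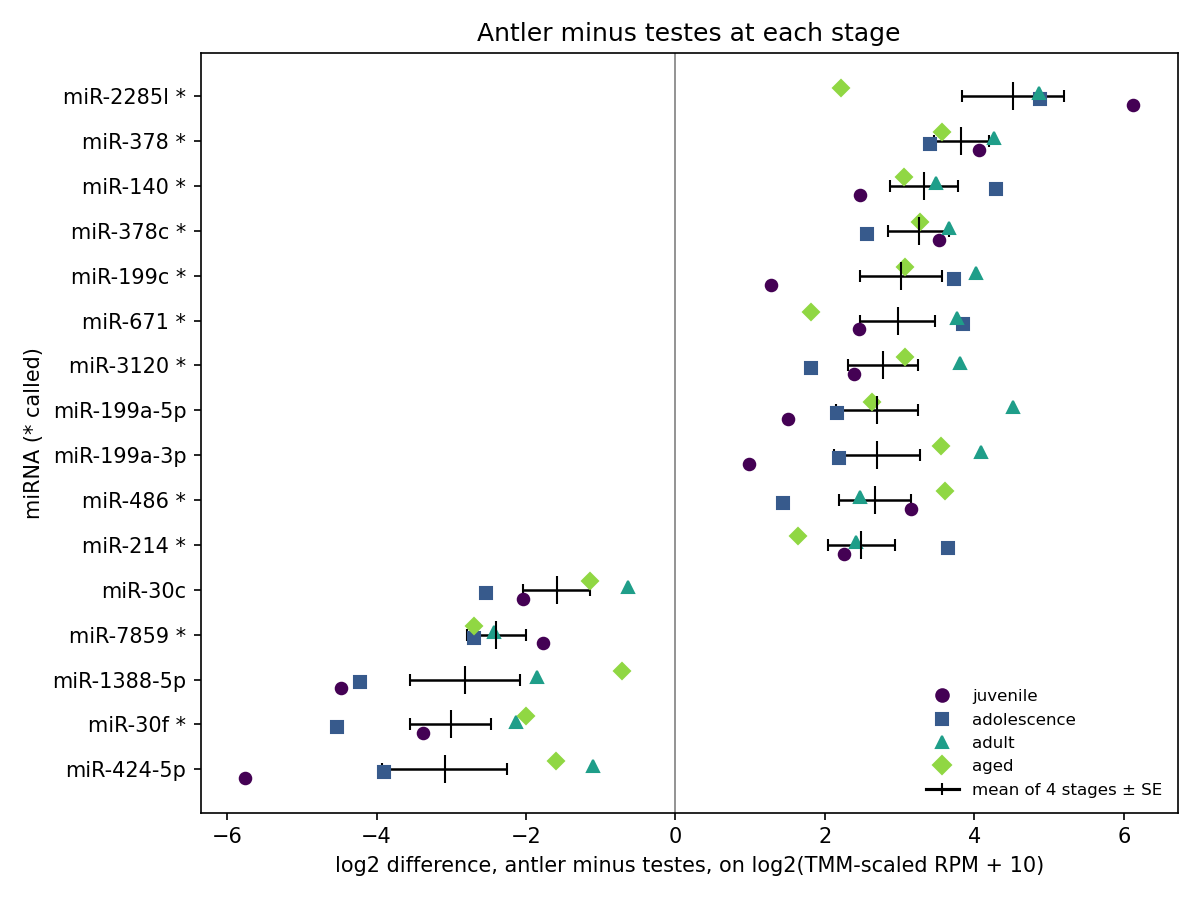
Points give the log2 difference, antler minus testes, at each of the 4 stages for the 11 called miRNAs (asterisks) and 5 others, and the black bar gives their mean with its SE from the limma fit. All 4 points of each miRNA lie on the same side of 0, and those of miR-378 (3.41 to 4.26) lie closer together than those of miR-424-5p (-5.76 to -1.10).

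Other lists of miRNAs gave no call. The 7 tested let-7 names had a median of 0.02, but they hold the reads of let-7b a second time under the name miR-3596. This median is the value of let-7b itself. let-7b, the most abundant, was at 61455 to 93409 RPM in antler and 106094 to 246222 RPM in testes, yet differed by 0.02 (SE 0.33) on the scaled levels and by -1.08 on RPM. let-7c and let-7a-5p were at -0.99 and -0.38. The 4 tested miRNAs of the imprinted DLK1-DIO3 cluster had a median of 0.77, with miR-431 at 1.59 (SE 0.41, limma adjusted p = 0.0354), miR-409a at 0.82, miR-409b at 0.72 and miR-433 at -0.24, and on RPM miR-409a and miR-409b turned to -0.25 and -0.36. miR-17-5p of the miR-17 clusters, which are known from dividing cells, differed by -0.35 (SE 0.48). The smooth muscle miRNA miR-145 was at 10072 to 20356 RPM in antler and 34144 to 105877 RPM in testes. It differed by -0.97 (SE 0.42, limma adjusted p = 0.142), or by -2.07 on RPM as deposited, which passed the limit. The other name of the smooth muscle list, miR-143, had only 2 reads in antler and 2 in testes and was not tested. miR-192, of liver, gut and kidney, differed by 0.40 and turned to -0.69 on RPM.

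Markers of other cells differed widely between the testes libraries. The striated muscle miRNA miR-133a was read 78, 93, 116 and 65 times in antler and 43, 180, 191 and 299 times in testes, which is 80.3, 2677, 1969 and 7142 RPM in testes. Its log2 difference ran from 2.35 at juvenile to -4.80 at aged, with a mean of -1.47 (SE 1.08). miR-1, of the same muscles, was at 3717 to 10260 RPM in antler and at 3390, 48579, 8895 and 13997 RPM in testes, with a mean difference of 0.21 (SE 0.65) that turned to -0.89 on RPM. The summed level of the 8 striated muscle miRNAs, 4 of them read, was 3811 to 10637 RPM in antler and 3476 to 51375 RPM in testes. The neuronal miR-124a had 20, 6, 15 and 15 reads in testes and none in antler. Of the endothelial miRNAs only miR-126-3p was read, 18 times in antler and 6 in testes, which is a mean of 7.17 RPM in antler and 13.5 RPM in testes. No epithelial miRNA of the list of 7 had a read in either. The part of such cells in the results above was not tested.

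The size of the difference varied with the stage. The correlation of the antler and testes levels over the 79 names was 0.82, 0.83, 0.87 and 0.86 from juvenile to aged, which is a description across miRNAs measured in the same 2 libraries. Over pairs of antler libraries it was 0.94 to 0.99 and over pairs of testes libraries 0.84 to 0.97, with the juvenile testes at 0.84 to 0.92 to the later ones. On the scaled levels, the number of names more than 1 higher in antler on the log2 scale was 21, 21, 29 and 31 over the stages. The number more than 1 lower was 29, 30, 11 and 12. The TMM factors were 0.866, 1.08, 0.353 and 0.659 in antler and 1.08, 1.91, 1.27 and 1.75 in testes. Scaling thus raised the differences most at the adult and aged stages, and these counts were not made on RPM as deposited. They therefore show no change with age apart from the scaling. miR-26a, named after its values were seen, had one of the widest swings, with differences of -3.40, -0.51, 0.19 and 3.30 from juvenile to aged and reads of 1610, 4122, 2984 and 23086 in antler and 53165, 3260, 1357 and 360 in testes.

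The juvenile pair was also set against the 3 later pairs, since the study sets the juvenile testes apart. The juvenile side of this comparison is 1 pair of libraries, and its spread is taken from the later pairs and the other miRNAs. limma called 0 of the 79 names (0%), with 3 at an unadjusted p under 0.05 and a smallest adjusted p of 0.689, and edgeR called 0 with 4 at an unadjusted p under 0.05. The 3 were miR-133a (5.09, SE 1.60), miR-199c (-2.33, SE 0.76) and miR-2898 (3.75, SE 1.24), as the difference at juvenile minus the mean difference later. Without the adolescent pair 18 names were called, 3 higher and 15 lower, so the result depends on that pair, and RPM as deposited called 2.

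The other 8 organs show on which side a difference lay. Over the 40 libraries, antler was more than 1 above the median of those organs on the log2 scale for 6 of the 9 names called higher, and testes more than 1 below it for 3. The same holds for 23 and 14 of all 79 names, or for 22 and 5 on RPM as deposited, where testes lay more than 1 above the median for 35 names instead of 10. Antler had the highest level of the 10 organs for miR-199c, miR-214, miR-3120 and miR-140, at 4.13, 3.66, 3.42 and 2.08 above the median of the 8 organs, and testes stood at 1.17, 1.24, 0.72 and -0.98. For miR-378, testes were the lowest of the 10 organs at -2.998 and antler was 4th at 0.77, behind skeletal muscle, heart and spleen. Testes were also lowest for miR-378c, at -2.31, and for miR-486, at -3.65 with antler at -1.05. On RPM as deposited testes remained lowest for miR-486 (-2.40) but were 9th of the 10 for miR-378 (-2.63) and miR-378c (-2.24), while antler kept the highest level for miR-199c, miR-214, miR-3120 and miR-140.

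For the lower names, antler was the lowest of the 10 organs for miR-30f and miR-7859, at -4.12 and -0.90, where testes were at -1.06 and 1.22. miR-30c was lowest in antler too, at -1.84, with testes at -0.20. On RPM as deposited antler was 9th of the 10 organs for all 3, at -4.25, -1.0 and -2.02. miR-424-5p was highest in testes, at 4.88 above the median of the other 8 organs, and antler came 3rd at 1.85. These places are means of 4 libraries given as a description.

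**Figure D5:**
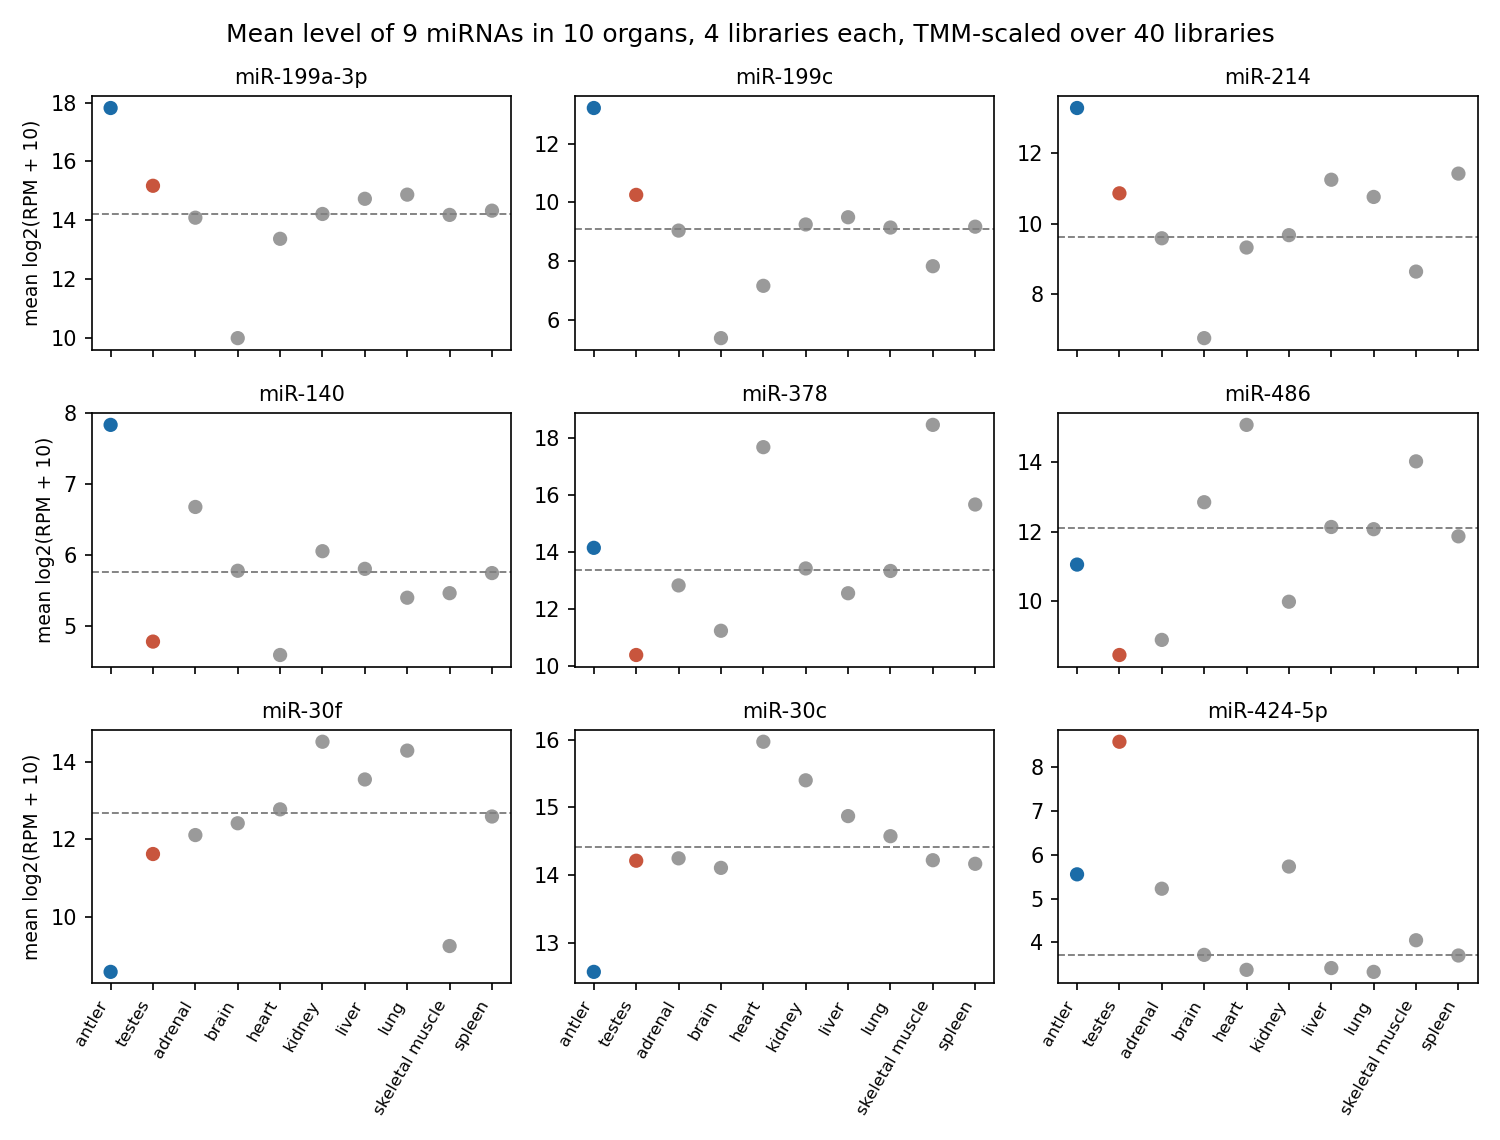
Each panel gives the mean log2(RPM + 10) of 1 miRNA in 10 organs, TMM-scaled over 40 libraries, with antler in blue, testes in red, the others in grey and a dashed line at the median of the other 8. Antler tops the panels of miR-199a-3p, miR-199c, miR-214 and miR-140 and is lowest for miR-30f and miR-30c (9th of 10 on RPM as deposited), testes are lowest for miR-378 (9th on RPM as deposited) and miR-486, and testes top the panel of miR-424-5p.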

How the data were processed

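Small RNA libraries of 10 organs at 4 stages, each from pooled RNA of 3 deer, were sequenced on an Illumina platform, and the 4 antler and 4 testes libraries were compared. The authors filtered out adapters, short reads and further RNA classes, searched what was left against miRBase, and used miRDeep to predict more miRNAs. The submitters' processing notes name CASAVA, bcl2fastq 1.8.4 and Bowtie. The deposited values are RPM on all miRNA reads of a library, under a header that says tpm, and names without a read are absent from a table. Dividing by the value of 1 read gave whole reads for 100% of the values of each library (tolerance 0.01), and these recovered reads gave the depths and the count tests. The antler name miR-148c was taken as miR-2957.

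Names with at least 10 reads in at least 4 of the 8 libraries were tested with limma 3.58.1 (trend) in R 4.3.3. The input was log2(RPM + 10) with TMM factors from edgeR 4.0.16, and the stage was a block, since each stage had its own deer for all organs. The deviations of same-stage libraries from their tissue means correlated at -0.03, 0.02, 0.17 and -0.17. The calls used a Benjamini-Hochberg adjusted p under 0.01 and a log2 difference beyond 1. Alternatives were RPM without TMM, size factors and the test of DESeq2 1.42.0, edgeR on the recovered reads, an added 1 or 25 RPM, other minimums of reads, thinning, near-identical names counted once, no block, all 40 libraries, each stage left out, and an adjusted p under 0.05. The samples measure 1 pool per stage, and the block takes out the level of each stage. The p-values of the main fit therefore reflect how the antler minus testes difference varied from stage to stage. limma moderates this spread with that of the other miRNAs.

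The miRNAs and lists were chosen with earlier results of these data known. The text names the pair given with the comparison, up to 10 called names in each direction with the same sign at all stages, the 5 most abundant names of each tissue, up to 4 of the most abundant tested members of each list and, for the juvenile comparison, the 3 smallest p. Predicted miRNAs with only a number, 31 cattle names that only antler lists, and the other organs, except for their levels, were left out.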

Additional observations from a re-analysis of the deposited data

Results flagged for a closer look

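In 3 of 64 groups of 4 libraries of the named miRNAs, 1 library stood apart from the other 3 on the scaled levels, where chance gives about 1 in 20. The measure is the gap of the extreme library to its nearest neighbour as a share of the range of the group. The aged antler stood apart for miR-671 (0.836) and for miR-133a (0.845), and the adult antler for miR-192 (0.844). On the TMM-scaled RPM, miR-671 was at 73.6 in the aged antler and 126 to 140 in the other 3, miR-133a at 137 in the aged antler and 402 to 488 in the others, and miR-192 at 8180 in the adult antler and 3616 to 4109 in the others. These places depend on the scaling. On RPM as deposited, from juvenile to aged, miR-671 was at 121, 145, 44.5 and 48.5, with the adult antler lowest. There miR-133a was at 363, 434, 172 and 90.0. For miR-192 the values were 3283, 3908, 2885 and 2707, with the adult antler among the others.

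The antler libraries also held 690 reads under 31 cattle names that no other organ lists, most of them miR-2285 names, which were not used in the comparison. Keeping them gave 14 calls over 81 tested names.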

How the results depend on the processing

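The 11 called miRNAs kept their direction under every alternative in which they were tested, while the number called ranged from 0 to 25. miR-378 was called in 18 of 20 alternatives, with an adjusted p between 6.03e-15 and 0.0236, and miR-378c in 15 of 20. The other 9 held their call less often, miR-30f in 12 of 20, miR-2285l in 12 of 18, miR-199c and miR-3120 in 11 of 20, miR-140 in 11 of 18, miR-486 in 10 of 20, miR-7859 in 10 of 18, miR-214 in 9 of 20 and miR-671 in 9 of 18. RPM as deposited gave 25 calls (17 lower), edgeR 1 (1 higher, 0 lower) and DESeq2 19 (14 higher, 5 lower). Adding 1 RPM gave 2 calls (2 higher, 0 lower) and adding 25 RPM gave 11 (10 higher, 1 lower). With no minimum of reads 2 were called (2 higher, 0 lower), and with 10 reads in all 8 libraries 7 (1 lower). Thinning to the smallest library gave 2 (2 higher, 0 lower) and near-identical names counted once gave 7 (5 higher). All 40 libraries gave 17 (5 lower) and an adjusted p under 0.05 gave 21 (15 higher, 6 lower). Without the replicate block that pairs the stages, 17 were called (4 lower). Leaving out each stage gave 0 to 2 calls, 0 to 2 higher and 0 lower, and 0 to 18 in the juvenile comparison, where RPM as deposited gave 2. Fewer names were tested under the stricter minimum (47) and under thinning (44). Apart from these constructions the cause was not tested. Chosen after seeing the data, voom with sample weights gave 15 calls, the names only antler lists 14, and total reads without miR-199 and second names 15.

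On RPM as deposited let-7b and miR-3596 turned to -1.08, miR-409b to -0.36, miR-409a to -0.25, miR-1 to -0.89, miR-192 to -0.69 and miR-2898 to -0.13, and the place of miR-378c in antler to -0.057. Thinned, let-7b was -0.084 and miR-3596 -0.10, with near-identical names counted once let-7b was -0.10, and over all 40 libraries both were -0.038. With each stage left out, let-7b and miR-3596 ranged from -0.12 (without adolescence) to 0.55, miR-17-5p from -0.58 to 0.082 (without aged), miR-433 from -0.57 to 0.16 (without adult, 0.15 without aged) and miR-1 from -0.37 (without juvenile) to 0.83. None of these was called. The reads of the later testes limit what scarce miRNAs show, since 1 read there is worth 10.3 to 23.9 RPM.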
